A study of Mus musculus with 8 samples.

Results

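Astrocyte gene expression was examined in lumbar spinal cord RNA-seq from 8 male mice carrying the SOD1G93A transgene, a model of amyotrophic lateral sclerosis (ALS). The genes were 42 taken by name from the count table, which holds 55291 genes. They comprised 17 homeostatic genes of resting astrocytes, 10 pan-reactive genes, 4 genes of the "A1" reactive state and 11 of the "A2" reactive state. All 42 passed the filter on low counts and were among the 19470 genes tested. The sequenced groups were 4 SOD1G93A Agerfl/fl Cx3cr1Cre/+ mice (the Ager-deleted mice, with IDs E1776, E5231, E5248 and E5568) and 4 SOD1G93A Ager+/+ Cx3cr1Cre/+ mice (the Cre-expressing controls, with IDs E5386, E5642, E6578 and E6732). All were on a C57BL/6J background. Every mouse of both genotypes received tamoxifen, at 12 weeks of age by the labels, and carried 1 Cx3cr1 allele replaced by an inducible Cre. That Cre acts in microglia and in other Cx3cr1-expressing cells such as peripheral macrophages, and is not aimed at astrocytes. By their labels the mice were 120 days old, whereas the study's text describes end-stage tissue for its transcriptome. No mouse without the SOD1G93A transgene was among the samples, so whether a gene was raised or lowered by disease was not measured here.

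Astrocytes clear glutamate and potassium from the space around neurons, move water at vascular endfeet and share metabolites through gap junctions. In injury and in ALS they enlarge, raise intermediate filaments such as GFAP and secrete acute-phase and complement proteins. Microglial C1q, IL1α and TNF can drive astrocytes into the A1 state in culture and in inflamed tissue, and the A2 gene set was drawn from astrocytes after ischemia. The comparison therefore asks whether astrocyte transcripts differed in whole cord when Ager, the gene for the receptor RAGE, was deleted in microglia. Several reactive genes are not specific to astrocytes: Cd14 and Srgn are also made by myeloid cells, Vim and Timp1 by vascular and fibroblast cells, and Cp and Steap4 by several cell types.

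No astrocyte gene differed between genotypes past the threshold. By the exact test of edgeR, 0 of the 42 genes were called at an adjusted p under 0.05, against 14 of all 19470 genes tested (0.0719%). The unadjusted p was under 0.05 for 2 of them, Cp and Ptgs2, both lower in Ager-deleted mice, against 829 of all genes (4.26%). The adjusted p was 0.765 for Ptgs2, 0.954 for Cp and 1 for the other 40. The count of genes called among the 42 was also 0 in edgeR's quasi-likelihood test, its exact test on tagwise dispersions, DESeq2 and limma-voom. Of all genes these tests called 1, 78, 25 and 1 in the same order. The unadjusted p was under 0.05 for 3, 4, 4 and 2 of the 42, beside 1307, 658, 1270 and 1189 of all genes. For 1 gene, Ptgs2, every Ager-deleted mouse lay below every control, as was the case for 1.91% of all genes, and for none did every Ager-deleted mouse lie above every control, as for 1.97% of all genes.

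The homeostatic genes had a median log2 fold change of -0.081 (Ager-deleted over control), the pan-reactive genes -0.052, the A1 genes -0.18 and the A2 genes -0.168, beside 0.007 for all genes tested. These medians moved with single mice: leaving out 1 mouse at a time they ran from -0.144 to -0.043, from -0.177 to 0.101, from -0.319 to -0.089 and from -0.228 to -0.057 in the same order. The pan-reactive median was above 0 without E5248 (0.101), E5568 (0.019) or the control E5642 (0.004). Fold changes lay below 0 for 15 of 17 homeostatic and 16 of 25 reactive genes, beside 48.0% of all genes. These counts are a description and were not tested. Without the controls E5386 and E5642 they were 11 of 17 and 12 of 25, and without E5231 they were 15 of 17 and 21 of 25. Over all 19 alternatives they ran from 11 to 15 and from 12 to 21. The 95% intervals of the fold changes, taken from the quasi-likelihood fit and not adjusted for the number of genes, lay within 0.5 log2 units of 0 for 15 of 17 homeostatic genes but for only 8 of 25 reactive ones. For the remaining 17 reactive genes the intervals reached further than that.

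**Figure D1:**
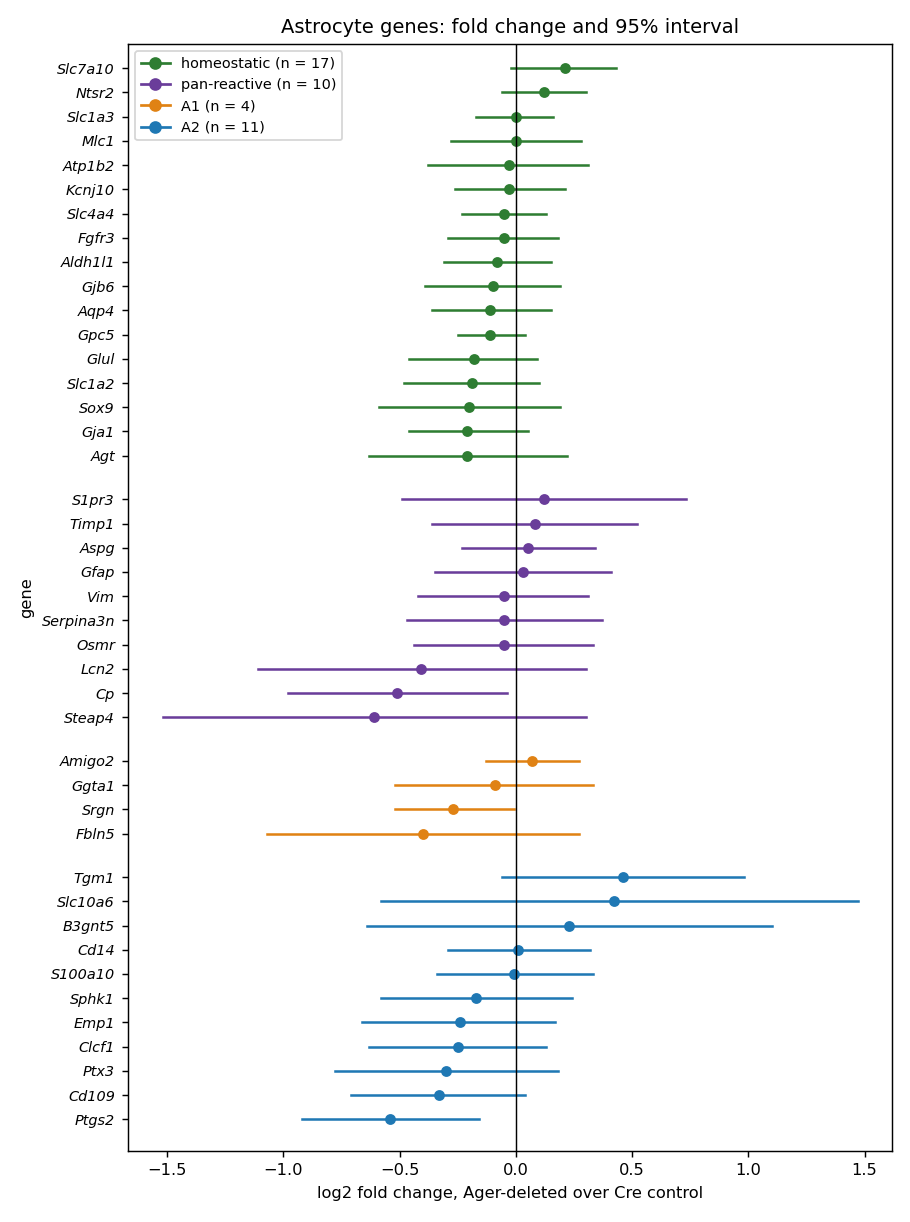
Log2 fold change of the 42 astrocyte genes in Ager-deleted mice over Cre-expressing controls (x axis), with a point for each gene and a line for its 95% interval, colored by list. The points of the 17 homeostatic genes run from -0.21 to 0.21 with short lines, and the reactive genes spread from -0.61 to 0.46 with longer ones.

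The libraries held between 31148047 and 40324897 counts on genes, at which 3 counts correspond to a CPM (count scaled to the library's normalized total) of between 0.0729 and 0.0975. The lowest count of any astrocyte gene in any mouse was 9, for Slc10a6, and 39 of the 42 had over 100 counts in every mouse. Ager, the targeted gene, averaged 1.19 ± 0.287 CPM after deletion and 2.08 ± 0.382 CPM in controls (SD, n = 4 each), from 35 to 99 counts per mouse. The genotypes did not overlap, as for 1.91% of all genes in that direction, but E5231 at 1.51 CPM lay close to the control E5386 at 1.53. Its log2 fold change of -0.81 was not called (adjusted p = 0.252 in edgeR's exact test). A few libraries stood apart in genes of other tissues. The skeletal muscle markers summed to 1112 CPM in E5386 and 1637 CPM in E5642, both controls, and to 67.2 to 93.4 CPM elsewhere, and 5 of 6 liver markers tested were highest in the control E6732. Markers of meningeal fibroblasts and Schwann cells were lowest in the control E5386, at summed levels of 564 and 206 CPM. For some genes whose call or difference changed by much when these controls were left out, the value without them is given beside it.

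Per kilobase of exon, the 42 genes spanned a wide range of levels. Gfap, the intermediate filament of astrocytes, was the most abundant, at a mean of 2146 CPM per kilobase over the 8 mice, ahead of Serpina3n, a secreted protease inhibitor, at 776. Glul (glutamine synthetase, which turns glutamate into glutamine) and Atp1b2 (a subunit of the sodium pump) followed at 520.3 and 515 CPM per kilobase, and the ranges of both overlapped. The water channel Aqp4, Agt (angiotensinogen), the glutamate transporter Slc1a2, the potassium channel Kcnj10, Vim (vimentin) and Mlc1, a membrane protein of endfeet, lay between 161 and 281. The A1 genes were at most 9.51 CPM per kilobase, the level of Srgn. Of the A2 genes, S100a10 (annexin A2's partner) stood highest at 67.9, while Slc10a6, Ptgs2 and B3gnt5 were at 0.402, 0.381 and 0.362 CPM per kilobase, and the ranges of these 3 overlapped. So the abundant transcripts were homeostatic or pan-reactive, and the 3 scarcest were A2 genes.

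**Figure D2:**
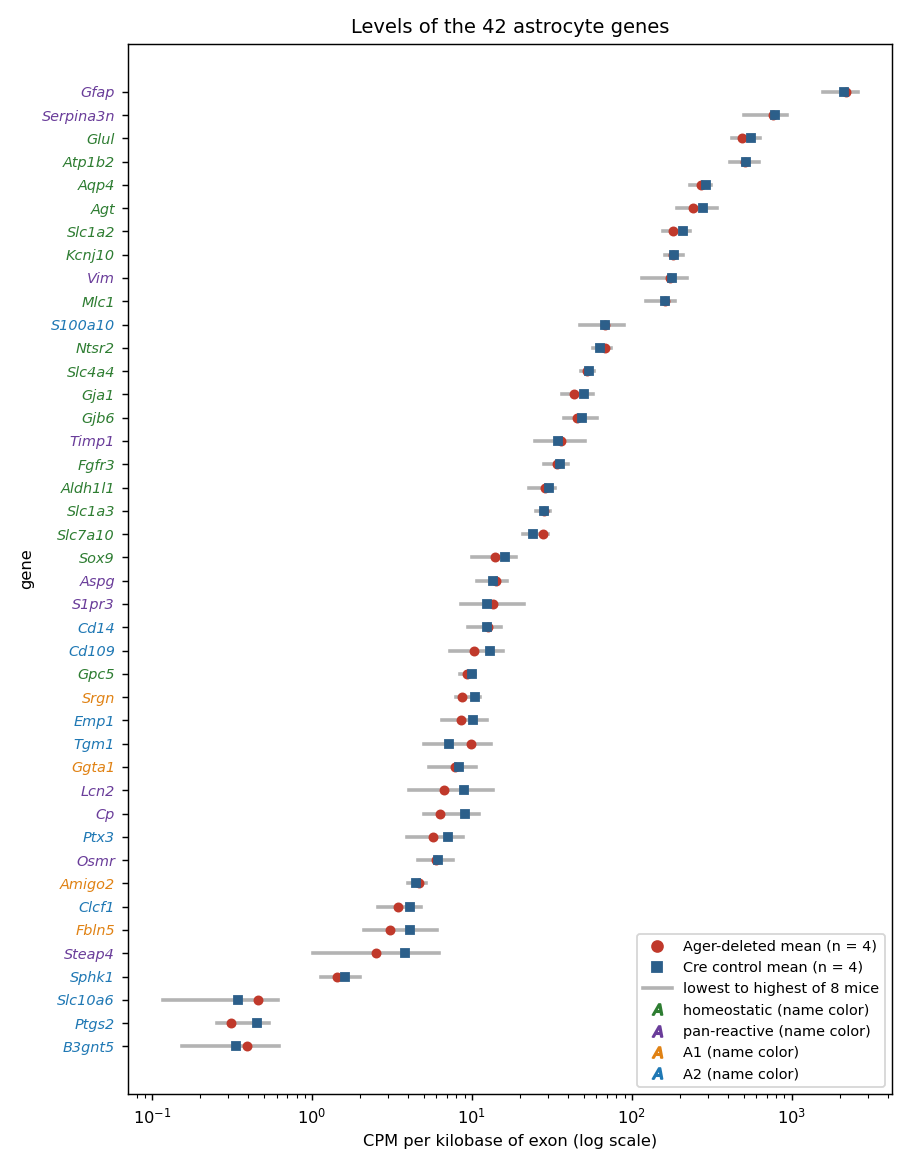
Level of each of the 42 astrocyte genes in CPM per kilobase of exon (log scale), with the mean of the 4 Ager-deleted mice as a red circle, the mean of the 4 controls as a blue square and the range over all 8 mice as a gray bar. Gene names are colored by list; Gfap is highest, at 2146, and the mean symbols of the genotypes lie close together for most genes.

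Among the homeostatic genes, the 3 glutamate handling genes overlapped between genotypes and none passed a test. Slc1a2 (GLT-1, the main glutamate transporter; chromosome 2 of GRCm38, 102658659 to 102790784, forward strand) was at 2898, 2205, 2390.5 and 2064 CPM in Ager-deleted mice and at 2681, 2845, 3043 and 2339.5 CPM in controls, where the order of mice, here and below, is that of the IDs given above. The lowest 2 values were Ager-deleted and the highest was a control, but the Ager-deleted mouse E1776 lay above 3 of the 4 controls. The log2 fold change was -0.19 (standard error 0.13, exact two-sided permutation test on log2(CPM + 1), p = 0.229). Glul was at 1751, 1614, 1414 and 1695 CPM in Ager-deleted mice and at 1749, 2111, 2013 and 1485 CPM in controls, a log2 fold change of -0.18 (standard error 0.13, exact permutation p = 0.229) that was -0.12 without E5642 and -0.35 without E5386 and E6732. The controls E5642 and E6578 lay above all Ager-deleted mice and the other controls lay among them. Slc1a3 (GLAST) had means of 239.8 ± 7.93 and 240.2 ± 21.9 CPM (SD, n = 4 each), a log2 fold change of 0.00 (standard error 0.07).

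The genes of water, potassium and gap junction function gave values of the same kind. Aqp4 was at 1879, 1865, 1575 and 1440.3 CPM in Ager-deleted mice and at 1948, 1800.1, 1594 and 1931 CPM in controls. The genotypes were interleaved, with E5248, E5568 and the control E6578 as the lower mice, and the log2 fold change was -0.11 (standard error 0.12, exact permutation p = 0.314). Gja1 (connexin 43) was at 527, 422, 468 and 376 CPM in Ager-deleted mice and at 497, 586, 534 and 453 CPM in controls. The 2 highest values were controls, the 2 lowest Ager-deleted, and the log2 fold change was -0.21 (standard error 0.12, exact permutation p = 0.171). The fold changes of Kcnj10 and of Gjb6 (connexin 30) were -0.03 and -0.10 on the log2 scale.

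Slc7a10 and Ntsr2 were the homeostatic genes with a fold change above 0. Slc7a10 (Asc-1, a transporter of serine and other small amino acids) was at 60.2, 53.1, 63 and 58.6 CPM in Ager-deleted mice and at 58.6, 44, 55.5 and 45.3 CPM in controls. The controls E5642 and E6732 were below every Ager-deleted mouse and the other controls were within their range. Its log2 fold change was 0.21 (standard error 0.10, unadjusted p = 0.0835 in edgeR's exact test), the smallest unadjusted p of the homeostatic genes. It was 0.14 without E5642 and 0.16 without E6732. Ntsr2, a neurotensin receptor of astrocytes, was at 219, 201, 202 and 232 CPM in Ager-deleted mice and at 212, 179, 212 and 181 CPM in controls. The same controls, E5642 and E6732, were below all Ager-deleted mice, and the log2 fold change was 0.12 (standard error 0.08, exact permutation p = 0.229), or 0.07 without E5642 and 0.09 without E6732. Exons of Slc7a10 and Lrp3 overlap on opposite strands, and the strand setting of the counting is not stated.

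The other 8 homeostatic genes had log2 fold changes between -0.21 and 0.00. They include the folate enzyme Aldh1l1 (-0.08), the growth factor receptor Fgfr3 (-0.05), the bicarbonate transporter Slc4a4 (-0.05), the sodium pump subunit Atp1b2 (-0.03), the glypican Gpc5 (-0.11) and the transcription factor Sox9 (-0.20). Agt varied most of the 17, with a coefficient of variation (CV) of 23.0% over the 8 mice and a log2 fold change of -0.21 (standard error 0.19). Gpc5 was the homeostatic gene nearest to separating the genotypes, with 3 of 4 controls above every Ager-deleted mouse, at a log2 fold change of -0.11.

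Gfap (chromosome 11 of GRCm38, 102887336 to 102900912, reverse strand) did not separate the genotypes. It was at 10908, 10660.5, 6643 and 8429 CPM in Ager-deleted mice and at 9674, 9471, 8146 and 8494 CPM in controls. The Ager-deleted mice held both the 2 highest values and the lowest, with all 4 controls between them. The means were 9159.9 ± 2015 and 8946 ± 742 CPM (SD, n = 4 each), a log2 fold change of 0.03 (standard error 0.17, exact permutation p = 0.971) with a 95% interval from -0.35 to 0.41. The sign turned when E1776, E5231 or E6578 was left out, within -0.06 to 0.16 over all 8 omissions. Vim, the other intermediate filament of the list, had a log2 fold change of -0.05 (standard error 0.16).

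Serpina3n and Lcn2, secreted proteins that rise in reactive astrocytes, differed in how far they varied. Serpina3n was at 1907, 1941, 1042 and 1401 CPM in Ager-deleted mice and at 1691, 1739.8, 1765 and 1321 CPM in controls. As for Gfap, E1776 and E5231 were highest and E5248 lowest, with a log2 fold change of -0.05 (standard error 0.19, exact permutation p = 0.714). Lcn2 (lipocalin 2, an iron-siderophore carrier) was at 13.4, 27.7, 10.6 and 18.7 CPM in Ager-deleted mice and at 23.3, 35.5, 20 and 14.5 CPM in controls. The highest value was the control E5642 and the lowest E5248, and the range was 3.35-fold. Its log2 fold change of -0.41 (standard error 0.32, exact permutation p = 0.343) was -0.71 and -0.14 at the extremes when 1 mouse at a time was left out, and 0.02 without E5386 and E5642. Serpina3n belongs to a family of near-identical genes, so the share of its reads that was counted is uncertain.

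Cp and Steap4 were the pan-reactive genes with the smallest p, and both turned on 1 control. Cp (ceruloplasmin, a copper-carrying ferroxidase; chromosome 3 of GRCm38, 19957054 to 20009145, forward strand) was at 52.7, 65.6, 68.1 and 55.2 CPM in Ager-deleted mice and at 48, 106, 87.9 and 103 CPM in controls. The control E5386 was the lowest of all 8 mice, and the other 3 controls lay above every Ager-deleted mouse. The log2 fold change was -0.51 (standard error 0.21), and edgeR's exact test gave p = 0.0195 unadjusted and 0.954 adjusted, with an exact permutation p of 0.171. Exons of Cp and Hps3 overlap on opposite strands. Steap4, a metalloreductase (chromosome 5, 7960457 to 7982213, forward strand), was at 6.15, 9.11, 9.57 and 6.69 CPM in Ager-deleted mice and at 3.2, 19.5, 12.4 and 12.9 CPM in controls. Again E5386 was the lowest mouse and the other 3 controls the highest, with a log2 fold change of -0.61 (standard error 0.41, exact permutation p = 0.486).

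Without E5386 both genes passed the threshold in the exact test but not in the quasi-likelihood test. In edgeR's exact test on the remaining 7 mice, the log2 fold changes were -0.72 for Cp (adjusted p = 8.59e-05) and -0.93 for Steap4 (adjusted p = 0.0215), both lower in Ager-deleted mice. They were 2 of the 42 astrocyte genes called, against 0.365% of all genes in that fit. Without E5386 and E5642, the mice with muscle transcripts, Cp was called (adjusted p = 0.0025) and Steap4 was not (adjusted p = 0.184), against 0.333% of all genes. Without E5386 and E6732, an alternative chosen after the data were seen, both were called (adjusted p = 0.00184 and 0.0127), against 0.704% of all genes. Over all 19 alternatives their log2 fold changes stayed below 0, between -0.72 and -0.41 for Cp and between -1.02 and -0.28 for Steap4, and the other 40 genes were called in none. In edgeR's quasi-likelihood test, added after the data were seen, the adjusted p without E5386 was 0.234 for Cp and 0.425 for Steap4. In that test 0 of the 42 genes were called without E5386, without E5386 and E5642, or without E5386 and E6732. The same fits called only 1 gene each among all 19716, 20141 and 20039 genes tested, so 0 of 42 says little about these genes. The adjusted p of Cp in that test was 0.661 without E5386 and E5642 and 0.348 without E5386 and E6732. On counts simulated for all 8 mice with 200 genes changed by 1.5 log2 units, the exact test made 42 false calls beside 197 true ones and the quasi-likelihood test 13 beside 193. No mouse was left out there and the changes were larger, so it cannot tell whether the calls of Cp and Steap4 were false.

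The summed level of meningeal fibroblast markers moved with Cp and Steap4 across the same mice, though not every marker did. The summed level of the 8 markers was 564 CPM in E5386, 1294 to 1456 CPM in the other controls and 707 to 836 CPM after Ager deletion. The order is the one seen for Cp, with E5386 lowest, Ager-deleted mice above it and the other controls highest. All 8 markers had fold changes below 0 (median -0.496), 3 with an unadjusted p under 0.05 and 0 with an adjusted p under 0.05, and none was at 0 in all mice. Of the 8 markers, 5 were lowest in E5386, as were all 6 Schwann cell markers. The 3 with an unadjusted p under 0.05 were not: Slc47a1 was lowest in E1776 and Ptgds in E5248. Pdgfra, the last of them, was at 72.4 CPM in E5386, above the Ager-deleted mice at 59.1 to 70 CPM. Ptgds alone gave 418 of the 564 CPM in E5386. Their part in the values of Cp and Steap4 was not tested. Because whole cord was sequenced, fewer cells of a type and less RNA per cell cannot be told apart for any gene here.

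**Figure D3:**
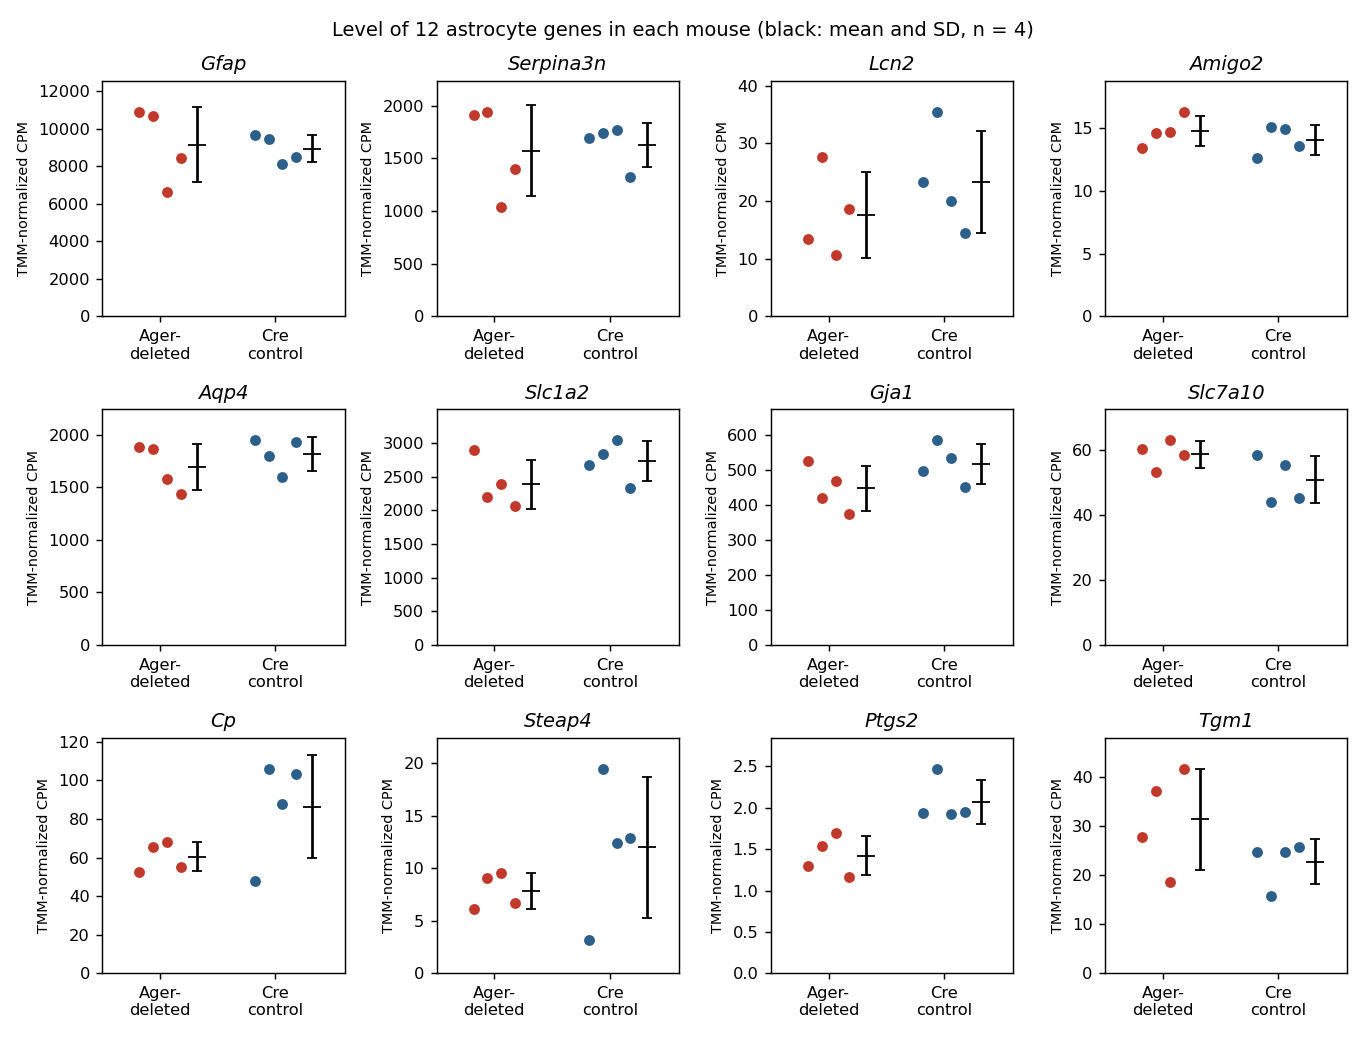
CPM of 12 astrocyte genes in each mouse, on axes that start at 0, with Ager-deleted mice in red, controls in blue, and the mean and SD of each genotype (n = 4) in black. For Cp and Steap4 the control E5386 lies below every other mouse and the other 3 controls above every Ager-deleted mouse, while for Ptgs2 the genotypes do not overlap.

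S1pr3 and Timp1, both pan-reactive, varied more among Ager-deleted mice than among controls. S1pr3 (a sphingosine-1-phosphate receptor) was at 67.9, 95.2, 38.4 and 40.2 CPM in Ager-deleted mice and at 61, 53.9, 40.3 and 66.9 CPM in controls. Timp1, an inhibitor of matrix metalloproteinases, was at 36.7, 45.3, 22.1 and 24.6 CPM in Ager-deleted mice and at 32.7, 32.8, 27.6 and 28.9 CPM in controls. For both genes E5231 was highest and E5248 lowest of the 8 mice. Their log2 fold changes were 0.12 (standard error 0.27) and 0.08 (standard error 0.20), and each turned negative without E5231, at -0.19 and -0.13. Osmr, the oncostatin M receptor, and Aspg, an asparaginase, had log2 fold changes of -0.05 and 0.05.

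The 4 A1 genes did not move together. Amigo2, the adhesion molecule that the study stained as an A1 marker (chromosome 15 of GRCm38, 97244125 to 97247287, reverse strand), was at 13.4, 14.6, 14.7 and 16.3 CPM in Ager-deleted mice and at 12.6, 15.1, 14.9 and 13.6 CPM in controls. The genotypes were interleaved, and its CV of 7.99% was the lowest of the 25 reactive genes. Its log2 fold change was 0.07 (standard error 0.09, exact permutation p = 0.486), with a 95% interval from -0.13 to 0.27, that is, between 0.911 and 1.21-fold. Protein was not measured in these files. By staining of end-stage ventral horn, the study reports less GFAP area and less overlap of GFAP with AMIGO2 in Ager-deleted mice. Stained area and RNA of whole cord are different measures. An exon of Pced1b overlaps that of Amigo2 on the opposite strand.

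Srgn (serglycin, a core protein of secretory granules) was at 17.5, 22.8, 17.5 and 18.1 CPM in Ager-deleted mice and at 19, 24.9, 22.6 and 24.8 CPM in controls. The Ager-deleted mouse E5231 lay within the controls and the other 3 lay below all of them, with a log2 fold change of -0.27 (standard error 0.11, unadjusted p = 0.0513 in edgeR's exact test). Ggta1, a galactosyltransferase, was at 40.7, 49.8, 25.3 and 31.5 CPM in Ager-deleted mice and at 43.1, 42.6, 30.3 and 41.1 CPM in controls, and its fold change was -0.09 on the log2 scale. Fbln5 (fibulin 5, an elastic fiber protein) was at 27.9, 26.3, 14.5 and 16.7 CPM in Ager-deleted mice and at 17.9, 41.8, 34.8 and 18.5 CPM in controls. The controls E5642 and E6578 stood above the rest, the controls E5386 and E6732 fell within the Ager-deleted range, and the log2 fold change was -0.40 (standard error 0.30, exact permutation p = 0.371). It was -0.16 without E5642, -0.58 without E5386, -0.32 without E5386 and E5642, and -0.84 without E5386 and E6732 (adjusted p = 0.148 in edgeR's exact test). The part of the fibroblast and Schwann cell markers, whose summed levels were lowest in E5386, was not tested.

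Ptgs2 was the 1 astrocyte gene without overlap between genotypes. Ptgs2 (cyclooxygenase-2, which starts prostaglandin synthesis; chromosome 1 of GRCm38, 150100031 to 150108227, forward strand) was at 1.3, 1.54, 1.69 and 1.16 CPM in Ager-deleted mice and at 1.94, 2.47, 1.92 and 1.95 CPM in controls. All 4 Ager-deleted mice lay below all 4 controls, from between 45 and 80 counts per mouse. The log2 fold change was -0.54 (standard error 0.17; unadjusted p = 0.0111 and adjusted p = 0.765 in edgeR's exact test), and the exact permutation p of 0.0286 is the smallest that 4 mice against 4 allow. Over the 19 alternatives its log2 fold change stayed between -0.63 and -0.45 and its adjusted p between 0.399 and 1. Without E5386 and E5642 it was -0.45 and without E5386 and E6732 -0.63. Ptgs2 is also expressed by neurons and endothelial cells, whose markers were at summed levels of 2994 to 4211 and 257 to 365 CPM in Ager-deleted mice and 3435 to 3960 and 306 to 379 CPM in controls, and their part in its values was not tested.

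Other A2 genes had larger fold changes than most homeostatic ones, in both directions. Tgm1 (transglutaminase 1) was at 27.8, 37.1, 18.6 and 41.6 CPM in Ager-deleted mice and at 24.7, 15.8, 24.7 and 25.6 CPM in controls. The Ager-deleted mice E1776, E5231 and E5568 lay above every control and E5248 lay among them, with a log2 fold change of 0.46 (standard error 0.23, unadjusted p = 0.0591 in edgeR's exact test). Cd109, an inhibitor of TGFβ signaling, was at 82.8, 87.2, 50.5 and 63.7 CPM in Ager-deleted mice and at 84.6, 108, 92.4 and 73.4 CPM in controls. The controls E5642 and E6578 were highest and E5248 and E5568 lowest, and the log2 fold change was -0.33 (standard error 0.17, unadjusted p = 0.0655 in edgeR's exact test). It was -0.24 without E5642 and -0.49 without E5386 and E6732.

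Ptx3 (pentraxin 3, a soluble pattern receptor) was at 15.3, 23.7, 10.6 and 12 CPM in Ager-deleted mice and at 19, 19.3, 20.6 and 16.9 CPM in controls. The controls were close together and all lay within the Ager-deleted range, and the log2 fold change was -0.30 (standard error 0.22). Clcf1, an IL6-family cytokine, was at 16, 15.9, 9.85 and 11 CPM in Ager-deleted mice and at 16.8, 14.2, 18.3 and 13.3 CPM in controls, with E5248 and E5568 the lowest mice and a log2 fold change of -0.25 (standard error 0.17). Clcf1 shares exon bases with AC109138.7 on the same strand, so its count is uncertain. Exons of Slc1a2, Glul, S1pr3 and Tgm1 overlap those of other genes on the opposite strand. Glul also shares 93 exon bases with Mir8114 on the same strand, and Aldh1l1 shares 105 with Gm45901. The log2 fold changes of Emp1, a membrane protein, and of Sphk1, the sphingosine kinase, were -0.24 and -0.17. Those of S100a10 and of Cd14, the lipopolysaccharide co-receptor, were -0.01 and 0.01.

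Slc10a6 and B3gnt5, both scarce, had CVs of 45.9% and 42.7% over the 8 mice. Slc10a6, a transporter of sulfated steroids, was at 0.914, 0.701, 0.988 and 1.29 CPM in Ager-deleted mice and at 0.246, 1.17, 1.17 and 0.34 CPM in controls. The controls E5386 and E6732 lay below all other mice, and the log2 fold change of 0.42 (standard error 0.46) became -0.27 without these 2 mice. B3gnt5, an enzyme of glycolipid synthesis, was at 0.991, 2.02, 3.22 and 1.91 CPM in Ager-deleted mice and at 0.793, 1.61, 1.82 and 2.7 CPM in controls, a log2 fold change of 0.23 (standard error 0.39). The lowest mouse was the control E5386 and the highest E5248, which was the lowest mouse for most other reactive genes.

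For most reactive genes 1 Ager-deleted mouse was the lowest of all 8. E5248 was the lowest of the 8 mice for 8 of 10 pan-reactive, 2 of 4 A1 and 7 of 11 A2 genes, in all 17 of 25 reactive genes, whereas it was lowest for 18.1% of all genes tested. The 8 pan-reactive genes were Gfap, Vim, Serpina3n, Lcn2, S1pr3, Timp1, Osmr and Aspg. E5231 was highest for 8 of the 25 (all genes, 17.1%) and lowest for 0, and the control E5642 was highest for 9 of the 25 (all genes, 11.1%). Genes measured in the same 8 libraries are not independent, so these counts describe the libraries and were not tested.

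Averaged as log2(CPM + 1), the pan-reactive genes were at 7.03, 7.3, 6.58 and 6.76 in Ager-deleted mice and at 6.9, 7.3, 6.98 and 7.03 in controls. E5248 and E5568 were below every control, E5231 reached the level of the highest control, and the spread was 0.72 log2 units among Ager-deleted mice against 0.40 among controls. The SD on the log2 scale was larger in Ager-deleted mice for 19 of 25 reactive and 9 of 17 homeostatic genes, beside 63.3% of all genes. The homeostatic genes averaged 8.63, 8.48, 8.33 and 8.38 in Ager-deleted mice and 8.57, 8.58, 8.61 and 8.35 in controls, so that the control E6732 stood with E5248 and E5568 as the lower mice. Among the homeostatic genes E5248 was lowest for 6 of 17 and E5568 for 4, with E6732 among the 2 lowest mice for 12.

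**Figure D4:**
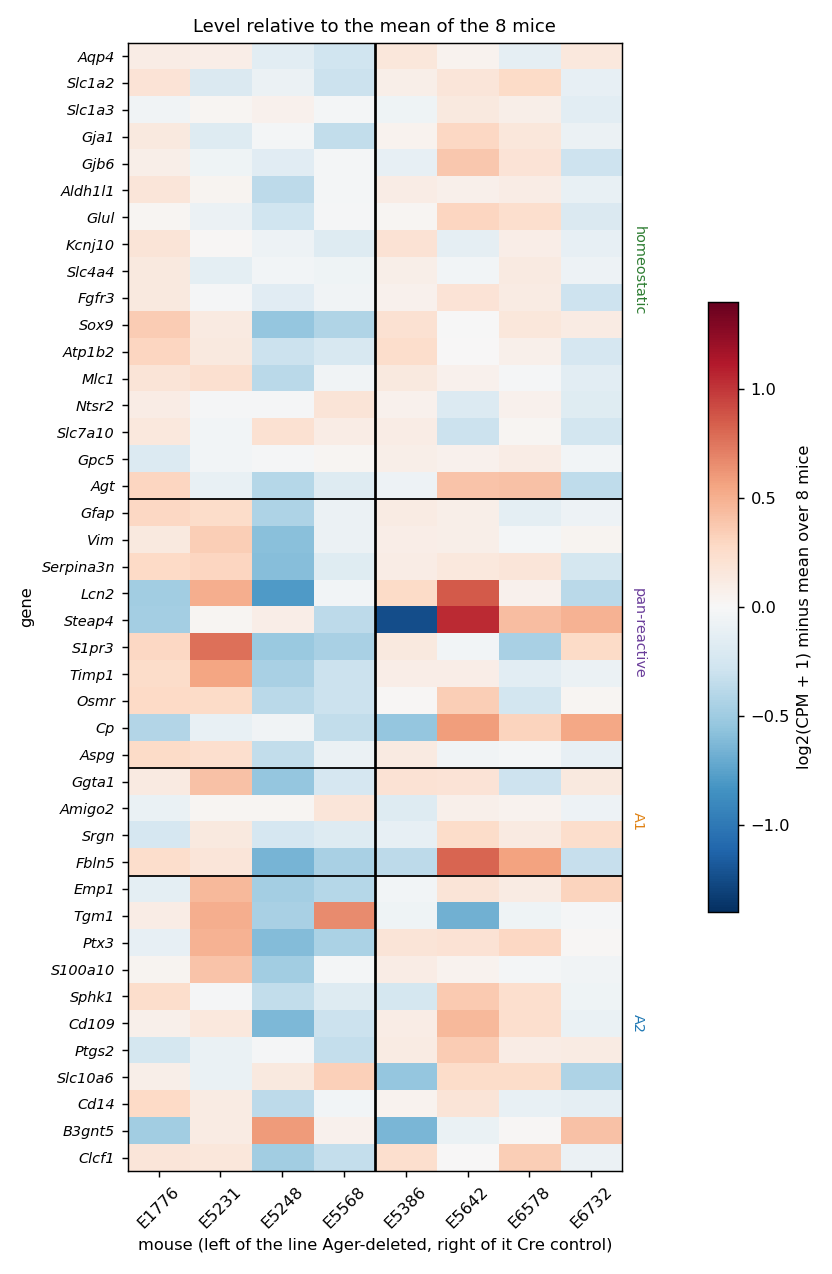
Level of each astrocyte gene (rows, by list) in each mouse (columns) as log2(CPM + 1) minus the mean of that gene over the 8 mice, in red where higher and blue where lower. The column of E5248 is blue for most reactive genes and that of E5231 red, while the column of E5386 is darkest blue at Steap4.

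Microglial markers, and those of some other cell types, differed between the same mice. The summed level of 14 microglia markers was 2473, 2754, 1652 and 1888 CPM in Ager-deleted mice and 2373, 2326, 2177 and 2120 CPM in controls. It was highest in E5231 and E1776 and lowest in E5248 and E5568, with the controls between. None of the 14 was at 0 in any mouse, and by edgeR's exact test 0 were called and 1 had p under 0.05 before adjustment. The 9 neuron markers summed to 3289, 2994, 4211 and 3737 CPM in Ager-deleted mice and 3435, 3580, 3960 and 3694 CPM in controls, highest in E5248 and lowest in E5231. The order was not particular to microglia. Pericyte and vascular muscle markers summed to 183, 214, 165 and 161 CPM in Ager-deleted mice, and ependymal markers to 76.5, 94.1, 68.8 and 71.8 CPM. Endothelial markers were also lowest in E5248 and E5568, at 267 and 257 CPM, but highest in the control E5642. Schwann cell markers went the other way, at 625 CPM in E5231 and 1318 CPM in E5248. The part of differing cell amounts in the reactive gene values was not tested.

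**Figure D5:**
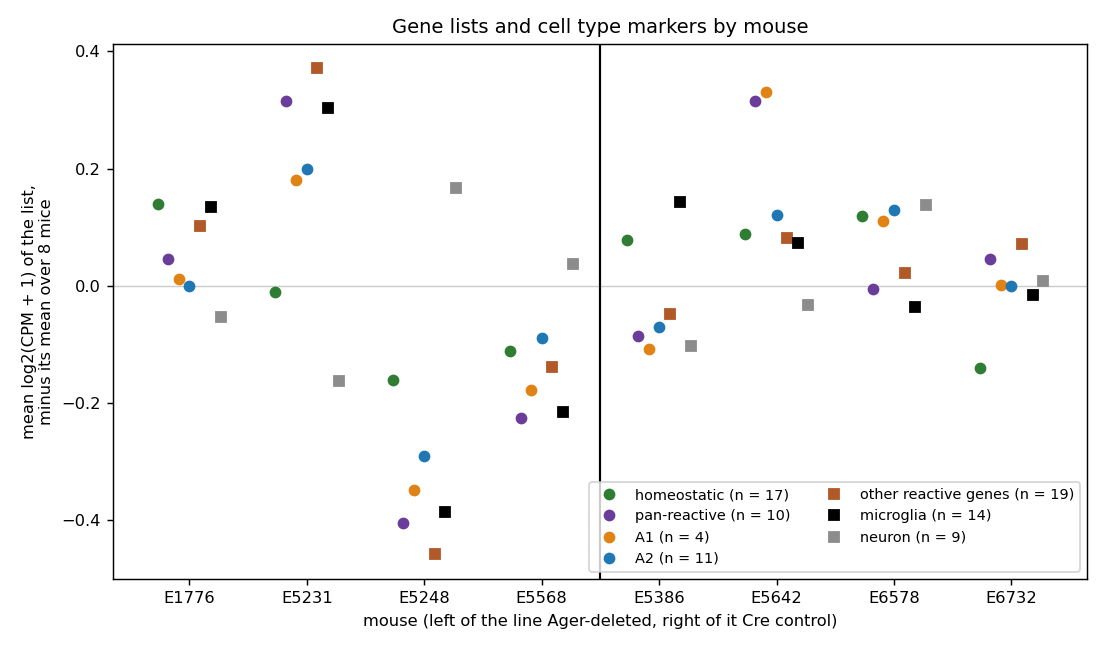
Mean log2(CPM + 1) of each astrocyte gene list (circles) and of other reactive genes, microglia markers and neuron markers (squares) in each mouse, minus the mean of that list over the 8 mice. The reactive lists and the microglia markers are high in E5231 and low in E5248 and E5568, and the neuron markers are the reverse. The controls lie closer together, apart from the A1 and pan-reactive lists in E5642 and the homeostatic list in E6732.

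Genes that act on astrocytes or report their state were examined beside the 42. Of 25 tested inducers and signaling genes, edgeR's exact test called 0 after adjustment and gave 1 an unadjusted p under 0.05, and 16 had fold changes below 0, with a median log2 fold change of -0.024. The A1 inducers had log2 fold changes of -0.10 (standard error 0.18) for Il1a, 0.01 (0.38) for Tnf, and 0.02 (0.21), -0.01 (0.22) and -0.01 (0.19) for C1qa, C1qb and C1qc, the chains of complement C1q. C1qa was at 584, 724, 319 and 428 CPM in Ager-deleted mice and at 520.3, 551, 516 and 443 CPM in controls, so that E5231 was highest and E5248 lowest. Tnf was at 18 to 64 counts per mouse, and Il6, at 0 to 10 counts, did not pass the filter. Cntf, a cytokine that activates astrocytes, was the gene with an unadjusted p under 0.05 (log2 fold change -0.67, standard error 0.28, p = 0.0311 in edgeR's exact test). Its log2 fold change was -0.40 without E5642 and -0.47 without E5386 and E5642. Without E5386 and E6732 it was -1.06 (adjusted p = 0.0575 in edgeR's exact test). Cntf shares exon bases with Zfp91 on the same strand, so its count is uncertain. The log2 fold changes of Il1b and Tgfbr2, a TGFβ receptor, were -0.52 (standard error 0.30) and -0.11 (standard error 0.10), and that of Stat3, a transcription factor of reactive gliosis, was 0.06 (standard error 0.08).

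Of 19 other reactive genes, edgeR's exact test gave 0 a p under 0.05, adjusted or unadjusted, with a median log2 fold change of 0.00. E5248 was lowest for 14 of the 19 and E5231 highest for 12. C3, the complement component often used to mark A1 astrocytes, was at 598, 427, 304 and 316 CPM in Ager-deleted mice and at 499.5, 403, 364 and 482 CPM in controls, a log2 fold change of -0.09 (standard error 0.20). C3 is also made by microglia. The smallest p values of that list were for Nes (nestin), Thbs1 (thrombospondin 1) and Tnc (tenascin C), with log2 fold changes of -0.19, -0.52 and 0.13. Thbs1 stood at 49.7 CPM in the control E6732, with the remaining 7 mice at 13 to 23.8 CPM, and its log2 fold change was -0.02 without E6732. Of 25 other astrocyte genes, 0 had an adjusted and 0 an unadjusted p under 0.05, with a median log2 fold change of -0.022. The smallest p values were for Etnppl, an enzyme of phosphoethanolamine breakdown (log2 fold change -0.43, standard error 0.22), the GABA receptor subunit Gabrg1 (-0.19, 0.08) and the mitochondrial glutamate carrier Slc25a18 (0.16, 0.08). Etnppl was -0.80 without E5386 and E6732 (adjusted p = 1.78e-05 in edgeR's exact test, where 0.704% of all genes were called) and -0.27 without E5642 (adjusted p = 1). That pair, chosen after the data were seen, held the controls at 109.9 and 78.7 CPM. The remaining controls were at 176 and 168 CPM and the Ager-deleted mice at 85.4 to 116 CPM, so the small p rests on that choice. S100b, which encodes a calcium-binding astrocyte protein and RAGE ligand, had a log2 fold change of 0.01 (standard error 0.08).

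Promoter sequence was available for 35 of the 42 genes in RefSeq (GRCm38.p6), and the 250 bases before the start were searched for motifs on both strands. The sequence TTCNNNGAA, the general form bound by STAT factors that act downstream of IL6-family cytokines, was found in 7 of the 35 genes (Agt, Emp1, Ntsr2, Slc1a3, Sphk1, Steap4 and Tgm1), against 8.13% of all genes searched. Its stricter form TTCCNGGAA, which is contained in the first, was found in 2, Agt and Steap4, against 1.09% of all genes. TGANTCA, bound by AP-1, was found in Cp, Emp1, Gja1 and Sphk1 (all genes, 7.82%). The windows of Agt and Steap4 are shown because they hold the stricter form. Separately, Agt had the largest CV of the homeostatic genes (23.0%) and Steap4 that of all 42 genes (50.7%). A match is a description of letters and says nothing of binding in these mice. The windows lie on the reverse strand at chr8:124569830-124569918 for Agt and on the forward strand at chr5:7960316-7960404 for Steap4, each written 5′ to 3′ with the match to TTCCNGGAA in capitals.
Agt: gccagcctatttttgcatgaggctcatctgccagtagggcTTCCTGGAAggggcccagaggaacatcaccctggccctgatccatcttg
Steap4: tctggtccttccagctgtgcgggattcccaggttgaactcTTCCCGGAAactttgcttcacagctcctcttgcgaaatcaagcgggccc
Both genes were high in the control E5642, at 637 and 19.5 CPM, but they differed elsewhere: Steap4 was lowest in the control E5386 and Agt in the Ager-deleted mouse E5248, at 365 CPM.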

How the data were processed

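Lumbar cord RNA was sequenced as polyadenylated, stranded libraries. The authors trimmed reads with Trimmomatic, aligned read pairs to mm10 with STAR 2.7.3a, summed pairs over GENCODE M25 genes in featureCounts (Subread 1.6.3; strand setting not given in the sources used here) and deposited raw counts for 55291 genes. They also deposited log2 values, TMM-normalized log2 CPM from edgeR, used here only to check the filter and scaling: recomputed values for the same 19470 genes lay within 4.78e-06. Mice were grouped by the genotype in their labels, and columns carry the mouse IDs of the labels. The labels do not say whether mice were littermates.

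From the raw counts, edgeR 4.0.16 (R 4.3.3) kept genes by filterByExpr at 10 counts, scaled libraries by TMM and ran exactTest on dispersions from estimateDisp without a design, as the study's methods name exactTest and TMM. The study reports 78 differentially expressed genes, where this fit called 14. The alternative with common and tagwise dispersions called 78, and the gene names were not compared. The p-values were adjusted over all genes tested (Benjamini-Hochberg, threshold 0.05). Standard errors and 95% intervals are from glmQLFit. Permutation tests enumerated the 70 assignments of 8 mice, two-sided, on log2(CPM + 1). The edgeR, DESeq2 and limma tests were tried on simulated data, the permutation test was not. Floors of 3 counts cover counting error only. Alternatives were glmQLFTest, DESeq2 1.42.0, limma-voom 3.58.1, other dispersions, normalizations and filters, an adjusted p of 0.10, a pseudocount of 0.1 and mice left out.

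The members and gene lists were written by hand and chosen with earlier results of these data known. Values per mouse are given for Gfap, Amigo2, Aqp4, Slc1a2, Lcn2 and Serpina3n, genes with an unadjusted p under 0.05 or without overlap, the 5 smallest p values of each list (all A1 genes), and the 5 largest CVs. Of the other lists, genes with an unadjusted p under 0.05, the 3 smallest p values of each list and Il1a, Tnf, C1qa, C1qb, C1qc, C3, S100b and Stat3 are named. Other names were chosen after their values were seen. Positions and exon lengths are from GENCODE M21 (GRCm38, which mm10 names), matched by symbol for all 42. In it 12 of the 42 share exon bases with another gene.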

Additional observations from a re-analysis of the deposited data

Results flagged for a closer look

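In 6 of the 84 groups of 4 mice examined for the 42 genes, 1 mouse stood apart from the other 3 of its genotype by more than Dixon's critical value allows for a gap within 4 samples. Chance flags about 1 group in 20, or 4.2 of 84. Among controls, Aldh1l1 was at 123 CPM in E6732 against 139.9 to 143 in the others, and Serpina3n was at 1321 CPM in E6732 against 1691 to 1765. Ggta1 was at 30.3 CPM in the control E6578 against 41.1 to 43.1. Tgm1 was at 15.8 CPM in the control E5642 against 24.7 to 25.6, and Ptgs2 was at 2.47 CPM in that mouse against 1.92 to 1.95. Among Ager-deleted mice, Srgn was at 22.8 CPM in E5231 against 17.5 to 18.1.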

How the results depend on the processing

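No paired analysis was possible because the labels carry no replicate numbers shared between the genotypes. Over 19 alternatives, 750 of 797 fold changes of the 42 genes kept their direction and their side of the threshold. The count of astrocyte genes called was 0 in 16 of the 19. It was 1 without E5386 and E5642, 2 without E5386 and E6732, and 0 to 2 when single mice were omitted, and the genes called were Cp and Steap4. By the quasi-likelihood test it was 0 in each of 3 fits without E5386, alone or with E5642 or E6732, and 1 of all genes was called in each. The count of all genes called was 14 on all 8 mice, 1 in the quasi-likelihood test, 1 in limma-voom, 25 in DESeq2, 78 with common and tagwise dispersions, 5 with a minimum of 50 counts, 48 at an adjusted p of 0.10, 67 without E5386 and E5642, 141 without E5386 and E6732, and 3 to 98 with 1 mouse left out. The count without overlap was 3 without E5386 and E5642 (12.8% of all genes) and 11 without E5386 and E6732 (16.7%). With 1 mouse left out it was 1 to 4, beside 4.99% to 11.0% of all genes, and 7.68% in the fit with 4. The causes were not tested, beyond that fewer mice make such gaps more frequent.

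The fold change changed sign for 19 genes, some of them far from 0 on all 8 mice (Lcn2 at -0.41, Slc10a6 at 0.42 and B3gnt5 at 0.23). Slc1a3 and Mlc1, at 0.00 on all mice, also took both signs and are not among the 19. Scaled by library size alone, S100a10 was at 0.02. Without E5386 and E5642, log2 fold changes were 0.04 for Fgfr3, 0.06 for Atp1b2, 0.02 for Serpina3n, 0.02 for Lcn2, 0.10 for Osmr, 0.04 for Ggta1, 0.05 for S100a10 and -0.17 for B3gnt5. Without E5386 and E6732 they were 0.02 for Ggta1, -0.03 for Amigo2, -0.27 for Slc10a6 and -0.03 for Cd14. With 1 mouse left out they ran from -0.20 to 0.01 for Gjb6, -0.15 to 0.01 for Aldh1l1, -0.09 to 0.03 for Kcnj10, -0.15 to 0.05 for Atp1b2, -0.06 to 0.16 for Gfap, -0.19 to 0.10 for Vim, -0.17 to 0.10 for Serpina3n, -0.19 to 0.29 for S1pr3, -0.13 to 0.22 for Timp1, -0.16 to 0.06 for Osmr, -0.03 to 0.16 for Aspg, -0.27 to 0.05 for Ggta1, -0.16 to 0.13 for S100a10, -0.09 to 0.13 for Cd14 and -0.08 to 0.53 for B3gnt5. Counts were lowest for Slc10a6, B3gnt5 and Ptgs2, where counting error is largest. Each p rests on these 8 mice only.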
